A study of Mus musculus with 31 samples.

Results

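The pancreatic lipases and the zymogen granule proteins are secretory products of the acinar cell, and 10 of their genes were followed across sorted cells of the newborn mouse pancreas. Members were taken by gene symbol, and each of the 10 symbols matched 1 row in each deposited table of 38283 genes. Of these, 6 code for the enzymes of fat digestion and their cofactor (Pnlip, Pnliprp1, Pnliprp2, Cel, Clps and Pla2g1b) and 4 for proteins of the zymogen granule (Sycn, Zg16, Gp2 and Cuzd1).

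The RNA came from pancreata of C57BL/6 mice at postnatal day 2, dissociated with trypsin and sorted by flow cytometry into YFP-positive mesenchymal and YFP-negative non-mesenchymal cells. All animals, controls included, carried 1 Nkx3.2-Cre allele, which acts in the mesenchyme of the developing foregut, so acinar cells were not the cells meant to carry either deletion. The Igf2 model set Igf2+/fl; Nkx3.2Cre/+ mutants against Igf2+/+; Nkx3.2Cre/+ controls, with 3 mutant and 4 control libraries of non-mesenchymal cells; its mesenchymal libraries were not analysed here. The H19DMD model, described by the series as mesenchymal overexpression of Igf2, set H19DMDfl/+; Nkx3.2+/Cre mutants against H19DMD+/+; Nkx3.2+/Cre controls, with 4 mutant and 3 control libraries of each fraction. The labels do not say whether a library came from 1 animal or from several, so p-values measure the spread between these libraries. Levels are FPKM, mapped fragments normalised to transcript length and library size. The steps between the lowest values implied a depth per library of about 2550000 to 5360000 fragments in the H19DMD table and 3420000 to 8680000 in the Igf2 table, under an assumed fragment length of 200 nt.

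The targeted locus checks the labels. In mesenchymal cells of the H19DMD model, controls had 2446 ± 8.1 FPKM of H19 (SD, n = 3) and mutants 700.3 ± 123 (SD, n = 4; limma adjusted p = 0.0458), and Igf2 stood at 3849 ± 189 and 7040 ± 800 FPKM (limma adjusted p = 0.927), both without overlap. In non-mesenchymal cells of the Igf2 model, where the deletion was not meant to act, Igf2 was 25.0 to 147 FPKM in mutants and 71.5 to 144 FPKM in controls, so that model's label has no check in the cells analysed here.

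Acinar cells make digestive enzymes in the rough endoplasmic reticulum, condense them into zymogen granules and release the granules by exocytosis when cholecystokinin or acetylcholine acts on the cell. Dietary triglyceride is split by pancreatic triglyceride lipase, which needs colipase to work at a bile salt-coated fat droplet. Bile salt-stimulated lipase and the lipase-related protein of Pnliprp2 act on a wider range of lipids. Both matter most in suckling animals, whose only food is fat-rich milk. In rodents, triglyceride lipase itself is known to come on around weaning, later than its related proteins.

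The 3 genes of the pancreatic lipase family lie side by side on the plus strand of chromosome 19 (GRCm38): Pnlip at 58652498 to 58681788, Pnliprp1 at 58728887 to 58744169 and Pnliprp2 at 58759719 to 58777534. Cel lies on chromosome 2 at 28555795 to 28563403 (minus strand), Clps on chromosome 17 at 28558149 to 28560766 (minus strand) and Pla2g1b on chromosome 5 at 115466262 to 115474722 (plus strand). All 4 granule protein genes are on chromosome 7, though not next to each other: Sycn at 28540885 to 28542209 (plus strand), Gp2 at 119442537 to 119459285, Zg16 at 127050156 to 127087328 and Cuzd1 at 131308554 to 131322292 (all minus strand). None of the 50-base stretches of the members' annotated transcripts occurs in a transcript of another gene, so the lipase relatives can be told apart with reads of this length. Sycn lies within Samd4b on the opposite strand, Cel and Zg16 overlap antisense or non-coding genes of the opposite strand (Gm13381 and Gm44939), and the annotated locus of Fgfr2 covers Cuzd1 on the same strand. The use of strand in the counting is not given in the sources used here, so these 4 values could include reads of the partner.

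The sequence before the transcription start is shown for the chromosome 19 trio, whose levels differed widely within 1 gene family, and for Cel, the lipase from another locus. The sequences are the 250 bases before the RefSeq start (GRCm38.p6), which for Pnlip lies inside the longer annotated locus given above. Of the 10 members, 8 matched an entry. Capitals mark a TATAAA box on the printed strand. In Cel they mark a TTTCCC box with the CANNTG E-box within 30 bases of it and an AAGGTCA motif, each searched on both strands. The other E-boxes are in lower case, but the last of them in Cel (cacaTG) shares its TG with the AAGGTCA motif.
Pnlip (chr19:58670115-58670364, plus strand): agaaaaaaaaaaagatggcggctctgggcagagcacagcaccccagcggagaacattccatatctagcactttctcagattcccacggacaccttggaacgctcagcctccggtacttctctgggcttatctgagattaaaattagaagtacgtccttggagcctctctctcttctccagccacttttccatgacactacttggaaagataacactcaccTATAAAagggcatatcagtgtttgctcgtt
Pnliprp1 (chr19:58728637-58728886, plus strand): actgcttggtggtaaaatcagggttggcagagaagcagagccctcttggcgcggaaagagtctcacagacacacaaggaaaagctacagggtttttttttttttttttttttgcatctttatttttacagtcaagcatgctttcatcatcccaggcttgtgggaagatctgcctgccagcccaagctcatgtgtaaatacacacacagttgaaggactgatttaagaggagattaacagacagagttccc
Pnliprp2 (chr19:58759473-58759722, plus strand): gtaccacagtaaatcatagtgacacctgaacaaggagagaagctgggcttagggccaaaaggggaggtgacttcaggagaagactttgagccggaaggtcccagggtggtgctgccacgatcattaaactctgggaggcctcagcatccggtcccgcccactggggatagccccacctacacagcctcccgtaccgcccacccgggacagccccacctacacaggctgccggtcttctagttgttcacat
Cel (chr2:28563404-28563653, minus strand): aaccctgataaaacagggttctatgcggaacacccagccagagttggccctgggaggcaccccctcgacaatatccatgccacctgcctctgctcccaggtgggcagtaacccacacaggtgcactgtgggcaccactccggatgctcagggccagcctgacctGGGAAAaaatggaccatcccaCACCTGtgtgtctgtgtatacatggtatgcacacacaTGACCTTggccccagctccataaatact

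A paired E-box and TTTCCC box is the kind of site bound by the acinar PTF1 complex, and AAGGTCA is the kind bound by the nuclear receptor NR5A2. Among the 8 members with a sequence, Cel alone held the paired site, which 4.74% of 27025 RefSeq promoters of the same length hold, and Cel alone held AAGGTCA, which 4.05% hold. A TATAAA box stood 30 bases before the start of Pnlip and 32 bases before that of Gp2, and 8.12% of all promoters have one. An E-box alone was found in 5 of the 8 members and in 66.04% of all promoters. These matches are descriptions of the letters in this window only.

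In the non-mesenchymal cells the members spanned more than 3 orders of magnitude, and their order was nearly the same in all 4 groups of these cells. Clps, which encodes colipase, led in each, at 3648 FPKM ± 868 (SD, n = 4) in Igf2 controls and 6916 ± 3110 (SD, n = 3) in H19DMD controls, which placed it 4th and 6th by mean level among 21125 protein-coding genes. Pnliprp1, a lipase relative with little known activity on triglyceride, came next at 1650 ± 426 FPKM (SD, n = 4) and 2861 ± 1066 FPKM (SD, n = 3). Cel, the bile salt-stimulated lipase, and Sycn, which encodes syncollin of the inner granule membrane, followed, and their library ranges overlapped in every one of these 4 groups. Clps made up 41.7 to 50.4% of the members' summed FPKM in a non-mesenchymal library, and Clps, Pnliprp1, Cel and Sycn together made up 93.4 to 95.8%.

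A middle tier held Zg16, a lectin of the granule membrane, at 188 ± 75 FPKM (SD, n = 4) in Igf2 controls and 379 ± 168 FPKM (SD, n = 3) in H19DMD controls. Gp2, the GPI-anchored main glycoprotein of the granule membrane, Pnliprp2, a galactolipase and phospholipase of the suckling period, and Pla2g1b, the secreted pancreatic phospholipase A2, stood at 47.0 to 117 FPKM in the means of both control groups. Neighbours among these 3 had overlapping ranges in both control groups, so their order there does not stand out from the spread. Cuzd1, a granule protein with CUB and zona pellucida domains, was lower, at 13.7 ± 6.0 FPKM (SD, n = 4) and 31.0 ± 8.8 FPKM (SD, n = 3).

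Pnlip, the textbook triglyceride lipase, was the exception within its own family. In Igf2 controls it was 0.329, 0.714, 1.08 and 0 FPKM, and in Igf2 mutants it was 5.20, 2.26 and 1.30 FPKM. In H19DMD controls it was 0, 2.08 and 2.39 FPKM, and in H19DMD mutants it was 0.573, 0.355, 0.885 and 0.616 FPKM. With the estimated value of 1 read, the non-zero values amount to about 3 to 5 reads in Igf2 controls, 8 to 38 in Igf2 mutants and 2 to 14 in the H19DMD non-mesenchymal libraries. In the same libraries its neighbour Pnliprp1 was at least 613 times higher wherever Pnlip was above 0, and Pnliprp2 was at least 22.8 times higher. By mean level Pnlip ranked 14407th among 21125 protein-coding genes in Igf2 controls, where Pnliprp1 ranked 16th and Pnliprp2 932nd.

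**Figure D1:**
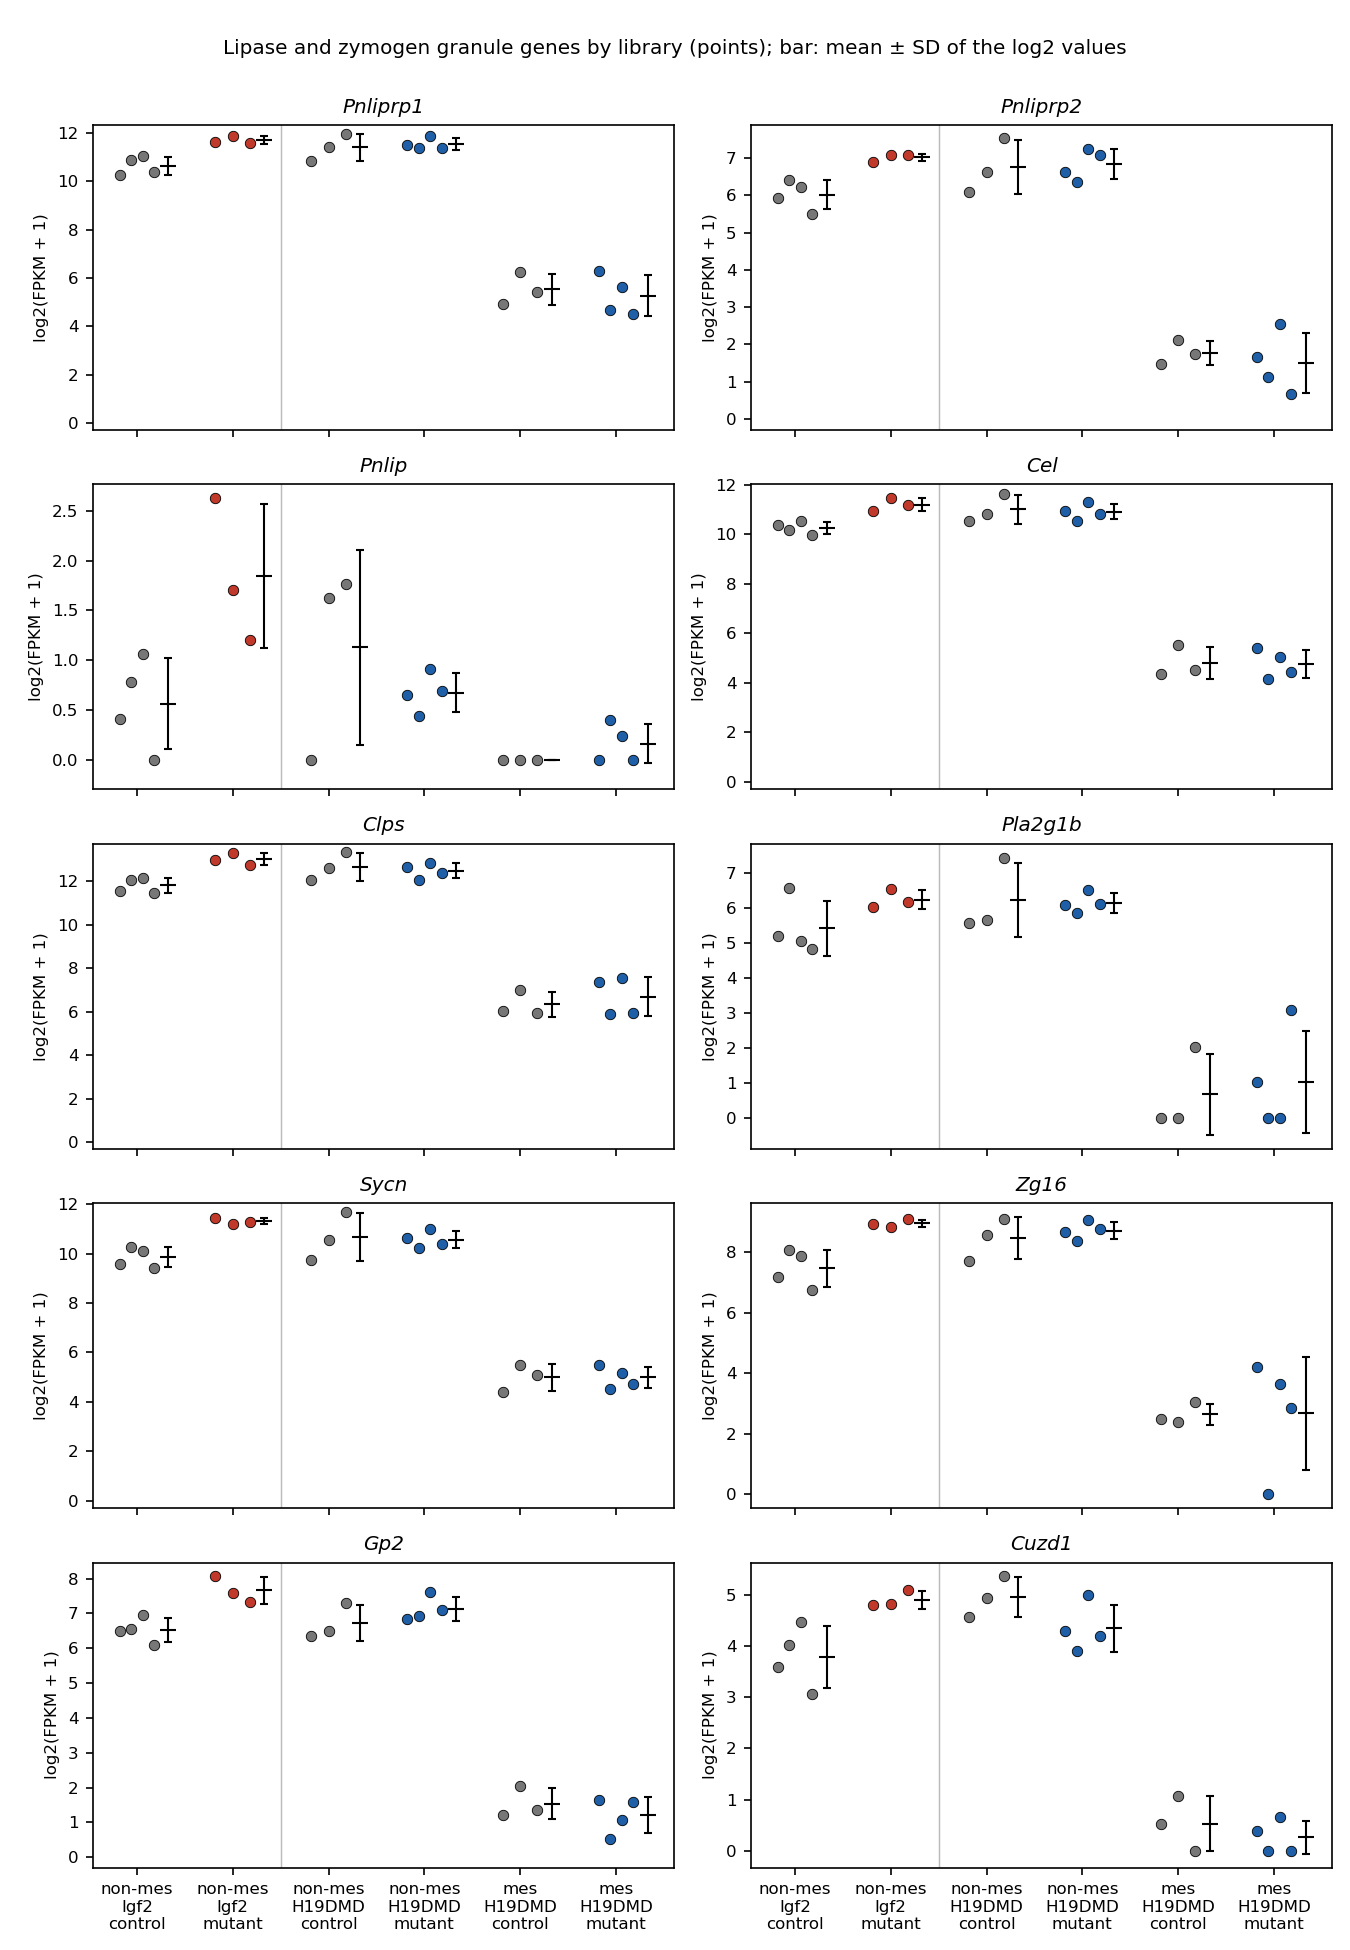
Levels of the 10 genes in each library, as log2(FPKM + 1), by group. Each point is 1 library, and the bar beside each group gives the mean ± SD of the log2 values; the vertical line parts the separately normalised tables of the Igf2 and H19DMD models. Clps is highest and Pnlip lowest in every non-mesenchymal group, and the 3 Igf2 mutant libraries lie above all 4 controls for every gene but Pla2g1b.

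Mesenchymal deletion of Igf2 was compared with its controls in the non-mesenchymal cells to see whether the products of the acinar cell differ when the deletion is directed to the neighbouring mesenchyme. Levels were higher in mutants for every member, mostly about 2-fold in the FPKM as deposited, but no member passed the test across all genes. In 9 of the 10 members each mutant library lay above each control library, against 2.65% of the 17441 genes tested that did so. Pnlip reached the filter for testing (a mean FPKM of 1 or more across both groups) only through its mutant libraries; of the other 9 members, 8 did not overlap. The test was limma on log2(FPKM + 1), with p-values adjusted over all genes by Benjamini and Hochberg, and 0 members had an adjusted p under 0.05, as did 0.0631% of all genes; 9 members, or 8 of 9 without Pnlip, had an unadjusted p under 0.05, as did 5.28% of all genes. The difference between models was not tested, since the tables were normalised apart.

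Among the lipases and their cofactor, Clps was 7954, 9990 and 6924 FPKM in mutants and 2981, 4193, 4579 and 2839 FPKM in controls. All 3 mutant libraries lay above the highest control. The ratio of means was 2.27, and the log2 fold change was 1.20 ± 0.26 (SE), with a limma adjusted p of 0.696 and an exact permutation p (two-sided) of 0.0286, which 3 libraries against 4 cannot go below. The same exact p held for the other members without overlap except Cuzd1, at 0.0571. Pnliprp1 was 3190, 3790 and 3117 FPKM in mutants and 1246, 1893, 2125 and 1337 FPKM in controls. No control library reached the mutants, and the ratio of means was 2.04 (limma adjusted p = 0.789). Pnliprp2 was 118, 134 and 133 FPKM in mutants and 59.9, 83.2, 73.8 and 44.3 FPKM in controls, a ratio of 1.97 (limma adjusted p = 0.789). Its mutant libraries lay within 1.13-fold of each other, while its controls spread 1.88-fold.

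Cel was 1950, 2781 and 2329 FPKM in mutants and 1302, 1158, 1482 and 986 FPKM in controls, a ratio of 1.91 and the smallest difference among the members that did not overlap, at a log2 fold change of 0.93 ± 0.21 (SE; limma adjusted p = 0.755). Pla2g1b was the 1 member whose groups overlapped, at 63.6, 91.5 and 70.0 FPKM in mutants and 35.7, 92.6, 32.0 and 27.5 FPKM in controls. Control library 2 stood apart, above every mutant, and the other 3 controls lay below every mutant. The log2 fold change of Pla2g1b was 0.83 ± 0.42 (SE; exact permutation p = 0.143, two-sided) with that library and 1.21 without it. Pnlip, with the values given above, had a log2 fold change of 1.28 ± 0.48 (SE; limma adjusted p = 0.919) on its few reads, and 2.52 with a pseudocount of 0.1.

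Among the 4 granule proteins, Zg16 and Sycn had the highest log2 fold changes. Sycn was 2809, 2355 and 2470 FPKM in mutants and 771, 1242, 1087 and 693 FPKM in controls. All 3 mutants lay far above the highest control, the ratio of means was 2.68, and the log2 fold change of 1.46 ± 0.24 (SE) had the lowest limma adjusted p among the members, 0.398. Zg16 was 490, 459 and 542 FPKM in mutants and 144, 265, 236 and 108 FPKM in controls, a ratio of 2.64 and a log2 fold change of 1.48 ± 0.33 (SE; limma adjusted p = 0.710). Here the controls spread 2.47-fold and the mutants 1.18-fold. Gp2 was 270, 192 and 159 FPKM in mutants and 88.3, 92.4, 123 and 67.6 FPKM in controls, a ratio of 2.23 (limma adjusted p = 0.789). Cuzd1 was 26.9, 27.3 and 33.5 FPKM in mutants and 11.1, 15.3, 21.3 and 7.35 FPKM in controls, a ratio of 2.13 (limma adjusted p = 0.919). Control library 4 was the lowest of the controls in 9 of the 10 members, and library 3 was the highest in 6.

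**Figure D2:**
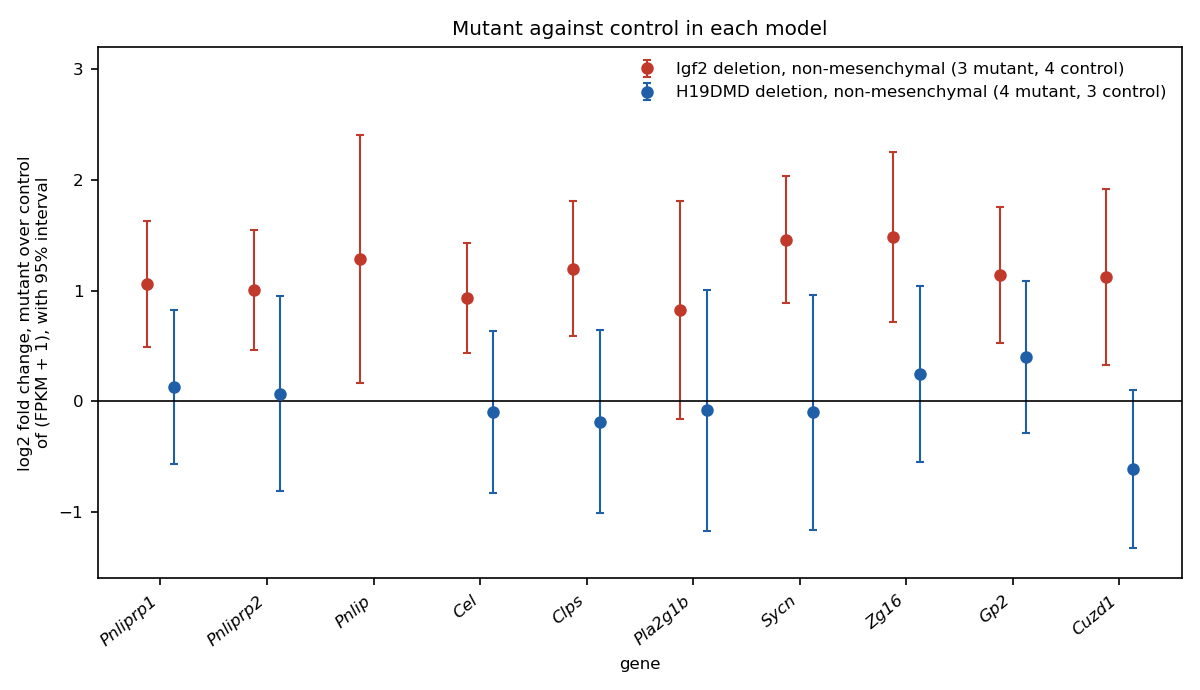
Log2 fold change of (FPKM + 1), mutant over control, in non-mesenchymal cells of each model, with the 95% interval of the limma fit for each gene. In the Igf2 model the points run from 0.83 (Pla2g1b) to 1.48 (Zg16), and in the H19DMD model from -0.61 (Cuzd1) to 0.40 (Gp2); Pnlip was not tested in the H19DMD model.

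The other products of the acinar cell were set beside the members from lists of known genes. Of 17 acinar proteases, 16 were tested, and in all 16 the mutant libraries lay above the controls, with a median log2 fold change of 1.28, against 1.13 for the 10 members, 1.12 without Pnlip, and -0.03 for all genes tested. None of the 16 passed the limma test after adjustment. Ctrb1, which encodes chymotrypsinogen B, was 82883 ± 6429 FPKM (SD, n = 3) in mutants and 31373 ± 5665 FPKM (SD, n = 4) in controls. Protein-coding genes alone rescaled to a common sum moved the median of all genes by -0.29, and the members' median stood 1.17 above that of all genes then and 1.16 above it before. The members' own median log2 fold change fell from 1.13 to 0.86 under this rescaling, and the lowest from 0.83 to 0.54 (Pla2g1b). Pnlip alone rose, from 1.28 to 1.54. Of 5 other secretory products, 4 were tested, all 4 above 0 (median log2 fold change 0.92), and 2 did not overlap between groups. These were Rnase1, the pancreatic ribonuclease, at 2301 ± 374 against 1174 ± 475 FPKM, and Spink3, the trypsin inhibitor, at 980 ± 266 against 382 ± 143 FPKM. Of 4 other zona pellucida domain proteins only Dmbt1, a secreted scavenger protein with such a domain like that of Gp2, reached the filter, at a log2 fold change of 1.45. It was 235 ± 81 FPKM in mutants and 84.4 ± 23.1 FPKM in controls, without overlap.

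Genes that act around the granule rather than inside it were read as well. Of 13 genes of granule traffic and exocytosis, 1 was higher and 1 lower without overlap, and the median log2 fold change was 0.14. Vamp8 and Vamp2, the SNARE proteins of the granule membrane, had log2 fold changes of 0.24 and 0.07 (limma adjusted p = 0.919 and 0.984). Of 7 acinar transcription factors and secretagogue receptors, 1 was higher and 1 lower without overlap, with a median of 0.70. Cckar, the cholecystokinin receptor of the acinar cell, was 31.8 ± 10 FPKM in mutants and 13.3 ± 3.4 FPKM in controls and did not overlap, while Nr5a2, the nuclear receptor named above, was lower, at 20.1 ± 2.2 against 27.8 ± 4.7 FPKM, again without overlap. Both missed the adjusted threshold (limma adjusted p = 0.789 and 0.919). Of 12 other lipases 6 were tested (median log2 fold change 0.03), and of 10 other secreted phospholipases A2 5 were tested (median 0.11); the groups overlapped in each of the genes tested. Lipa, the lysosomal acid lipase, for instance, was 14.1 ± 2.7 FPKM in mutants and 12.7 ± 2.5 FPKM in controls.

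Set against the proteases of the same library, no member had groups apart. When the mean log2(FPKM + 1) of the proteases was subtracted in each library, the groups of all 10 members overlapped. The difference between mutants and controls ran from -0.36 (Pla2g1b) to 0.30 (Zg16), with a median of -0.06. On this scale 62.7% of all genes tested had groups apart in either direction. That share is no background for the members. The proteases were higher in mutants (median log2 fold change 1.28), so subtracting them moves an unchanged gene apart. Members and proteases together gained in share: the members summed to 1.49 to 2.44% of the FPKM of protein-coding genes in controls and 3.2 to 3.74% in mutants, and the proteases to 7.64 to 11.1% and 18.7 to 20.1%. In bulk RNA of a sorted fraction, more acinar cells and more of these transcripts per acinar cell cannot be told apart. Markers of the other cell types were read in the same libraries. None of the 10 endocrine, 7 endothelial, 8 leukocyte, 7 erythroid, 6 neural and 8 tested mesenchymal markers had groups apart, with median log2 fold changes of 0.28, -0.13, 0.41, -0.55, -0.29 and -0.13. All 8 leukocyte markers were above 0, and all 7 erythroid and all 6 neural markers below 0; of the endocrine markers 7 were above 0, of the endothelial 3 and of the mesenchymal 2. Among 7 ductal markers (2 above 0, median -0.18) 1 was lower without overlap (Spp1, at 662 ± 63 against 851 ± 149 FPKM). Summed endocrine markers ranged from 9663 to 20276 FPKM in mutants and 6261 to 12641 FPKM in controls, summed leukocyte markers from 702 to 1078 and 518 to 797 FPKM, summed erythroid markers from 602 to 1775 and 727 to 4174 FPKM, and summed neural markers from 29.4 to 55.9 and 23.0 to 104 FPKM. Their part in the members' difference was not tested.

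**Figure D3:**
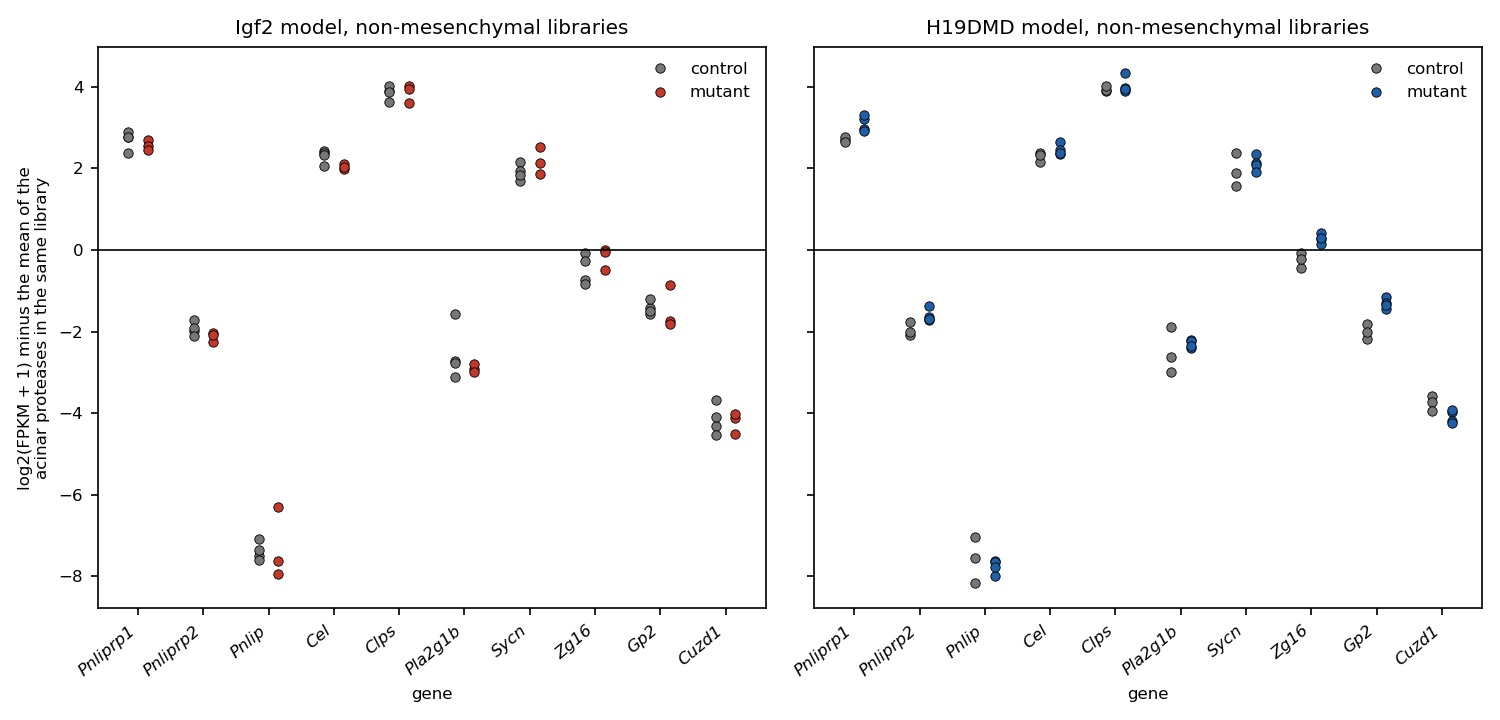
Log2(FPKM + 1) of each gene minus the mean of the 17 acinar proteases in the same library, for the non-mesenchymal libraries of each model; each point is 1 library. In the Igf2 model mutants and controls overlap for all 10 genes, and in the H19DMD model Pnliprp1, Pnliprp2, Zg16 and Gp2 are higher in mutants without overlap.

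By the likeness of their pattern, 5 genes outside the lists came closest to the members among 6358 candidates with at least 10 FPKM. Likeness was the lower of 2 Pearson correlations of log2(FPKM + 1) with the members' mean, 1 over the 7 non-mesenchymal libraries of each table, given without a p because the libraries share their groups and their acinar content. The genes were Erp27 (0.90), a protein of the disulfide isomerase family in the endoplasmic reticulum, the predicted gene Gm5771 (0.90), Sec61b (0.88), a subunit of the channel that carries new proteins into the endoplasmic reticulum, Sostdc1 (0.87), a secreted antagonist of BMP and Wnt signals, and Dap (0.86). Erp27 was 25.7 ± 5.2 FPKM in Igf2 mutants and 10.7 ± 4.0 FPKM in their controls, and 19.8 ± 7.3 and 19.5 ± 7.9 FPKM in mutants and controls of the H19DMD model.

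In the non-mesenchymal cells of the H19DMD model, mutants and controls overlapped in all 10 members. Of the 16239 genes tested, 5.68% did not overlap in either direction and 0.0677% passed the adjusted threshold; none of the 9 members tested did either, with limma adjusted p-values of 0.894 to 0.981, and none had an unadjusted p under 0.05, against 5.35% of genes. Clps was 6336, 4265, 7278 and 5377 FPKM in mutants and 4266, 6144 and 10339 FPKM in controls. The mutants fell within the span of the controls except for library 2, which was level with the lowest control. Pnliprp1 was 2884, 2693, 3813 and 2661 FPKM in mutants and 1859, 2743 and 3982 FPKM in controls, and here all 4 mutants lay within the span of the controls. Sycn was 1592, 1186, 2059 and 1321 FPKM in mutants and 854, 1497 and 3275 FPKM in controls, so the controls alone spread 3.83-fold.

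The members moved together from library to library. Control library 3 was the highest of the controls and control library 1 the lowest in all 10 members, and mutant library 3 was the highest of the mutants in all 10. Without control library 3, the log2 fold change of Sycn moved from -0.10 ± 0.45 (SE) to 0.41 and that of Pla2g1b from -0.08 to 0.53, neither past the threshold. Among the 9 members tested, the widest differences were those of Cuzd1, at 18.8, 13.9, 30.9 and 17.5 FPKM in mutants and 23.0, 29.6 and 40.3 FPKM in controls, and of Gp2, at 113, 121, 195 and 136 FPKM in mutants and 81.0, 88.6 and 157 FPKM in controls. On the log2 scale Cuzd1 differed by -0.61 (95% interval -1.33 to 0.10, limma adjusted p = 0.894) and Gp2 by 0.40 (interval -0.29 to 1.09, limma adjusted p = 0.894). For Clps the interval ran from -1.01 to 0.65.

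The proteases leaned lower in these mutants, at a median log2 fold change of -0.25 over 16 tested, 15 of them below 0 and none without overlap between groups. Relative to the proteases of the same library, 8 of the 10 members were higher in mutants, and 4 of them without overlap. Of the 16239 genes on the same scale, 3.37% were higher without overlap, but this share is no reference for the members. The mean log2 level of the proteases ran from 8.17 to 9.31 in controls. Subtracting it adds that spread to genes that do not follow the proteases. Zg16 was 0.28 in mutants and -0.24 in controls on this log2 scale, Gp2 was -1.32 and -1.995, Pnliprp1 was 3.11 and 2.70, and Pnliprp2 was -1.61 and -1.95. These ratios are descriptions and carry no test. Beside them, the 7 erythroid markers were all higher in mutants (median log2 fold change 1.70, groups overlapping in all 7, summed 154 to 1717 FPKM against 123 to 442 FPKM), and of 10 endocrine markers 7 were below 0 and 3 above. Of these Gcg and Ins1, the glucagon gene and an insulin gene of the islet, were lower without overlap, Ins1 at 3516 ± 982 FPKM in mutants and 6477 ± 1127 FPKM in controls. The 7 ductal markers were all above 0, Krt19 without overlap (63.2 ± 10.7 against 43.7 ± 12 FPKM). Of 7 tested mesenchymal markers 6 were above 0 (median 0.28) and of 6 tested endothelial markers 4 below (median -0.18), with overlap in all. The 8 leukocyte markers split 4 above and 4 below 0, with 2 lower without overlap, and the 6 neural markers split 2 and 4, with 1 higher without overlap. Their part in the members' values was not tested.

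The sort itself was read from the contrast of fractions in the H19DMD model. In controls, 9 members had lower levels in mesenchymal than in non-mesenchymal cells without overlap, where 17.4% of 16732 genes did so, and all 9 members tested passed the limma threshold downward, where 10.3% of genes did. Cuzd1 reached the filter only through the non-mesenchymal libraries; the other 8 had log2 fold changes of -6.32 (Clps, limma adjusted p = 0.000357) to -4.98 (Pnliprp2, limma adjusted p = 0.000595). The exact permutation p is 0.1 for each, the smallest that 3 against 3 libraries can give. Over all genes the calls were 2067 higher and 1718 lower in mesenchymal cells, 3496 higher and 1706 lower when protein-coding genes alone were rescaled, and 1871 higher and 2061 lower under median-ratio scaling. In mutants, the same 9 tested members lay lower without overlap, as 16.6% of 16767 genes did, and all 9 passed, as 15.1% of genes did downward; the 8 members at 1 FPKM or more in both fractions had log2 fold changes of -6.27 (Pnliprp1) to -5.10 (Pla2g1b). Pnlip was not tested: its highest mesenchymal mutant library stood at 0.317 FPKM, about 1 read, and its lowest non-mesenchymal one at 0.355 FPKM, about 2 reads.

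A low level of the abundant members remained in the mesenchymal libraries. Clps was 65.4, 128 and 61.4 FPKM in mesenchymal controls and 163, 59.4, 186 and 60.3 FPKM in mesenchymal mutants. Pnliprp1 was 29.7, 74.1 and 41.3 FPKM in controls and 77.0, 24.5, 48.6 and 21.5 FPKM in mutants, and Sycn was 20.3, 43.7 and 32.9 FPKM and 44.6, 22.2, 35.3 and 25.7 FPKM. The same libraries were high for several genes at once: control library 2 was highest among its group in 7 of the 10 members, and mutant library 2 was lowest in 7, in 2 of them (Pla2g1b and Cuzd1) tied at 0 with another library. Pnlip was listed at 0 in all 3 mesenchymal controls and in 2 of the 4 mutants, and Cuzd1 and Pla2g1b were listed at 0 in 3 and 4 of the 7 mesenchymal libraries.

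What remained was a small percentage of the non-mesenchymal level for members and proteases alike. Among members with at least 10 FPKM in non-mesenchymal cells, the mesenchymal mean was 1.13 to 2.13% of the non-mesenchymal mean in controls (median 1.65% over 9 members) and 1.01 to 3.05% in mutants (median 1.91%). For 16 proteases the medians were 1.495% and 1.78%. Clps stood at 1.23% and Pnliprp2 at 2.13% in controls, with library ranges of 0.888 to 1.85% and 1.53 to 2.85%. Library by library, the median over members was 1.08, 2.33 and 1.44% in the 3 controls and 2.11, 0.815, 2.29 and 1.08% in the 4 mutants, and the median over proteases was 0.832, 2.34 and 1.18% and 2.68, 0.964, 2.31 and 0.967%. Ptf1a, the defining transcription factor of the acinar lineage, was at 0 in all 7 mesenchymal libraries. The 3 most abundant genes of the same list were not. In controls, Nr5a2 was 1.01 FPKM in mesenchymal and 23.7 in non-mesenchymal cells, Rbpjl 0.572 and 24.2, and Cckar 0.438 and 32.4. The 0 of Ptf1a therefore does not show that acinar RNA was absent. Summed acinar transcription factors and receptors were 2.62 to 7.77 FPKM in mesenchymal libraries, against 75.3 to 137 FPKM in the non-mesenchymal libraries. Mesenchymal markers were present as the label says, with a summed level of 5052 to 6592 FPKM in mesenchymal and 35.3 to 136 FPKM in non-mesenchymal libraries of this model. Summed endocrine markers were 41.2 to 236 FPKM in mesenchymal libraries and 11070 to 29819 FPKM in non-mesenchymal ones.

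**Figure D4:**
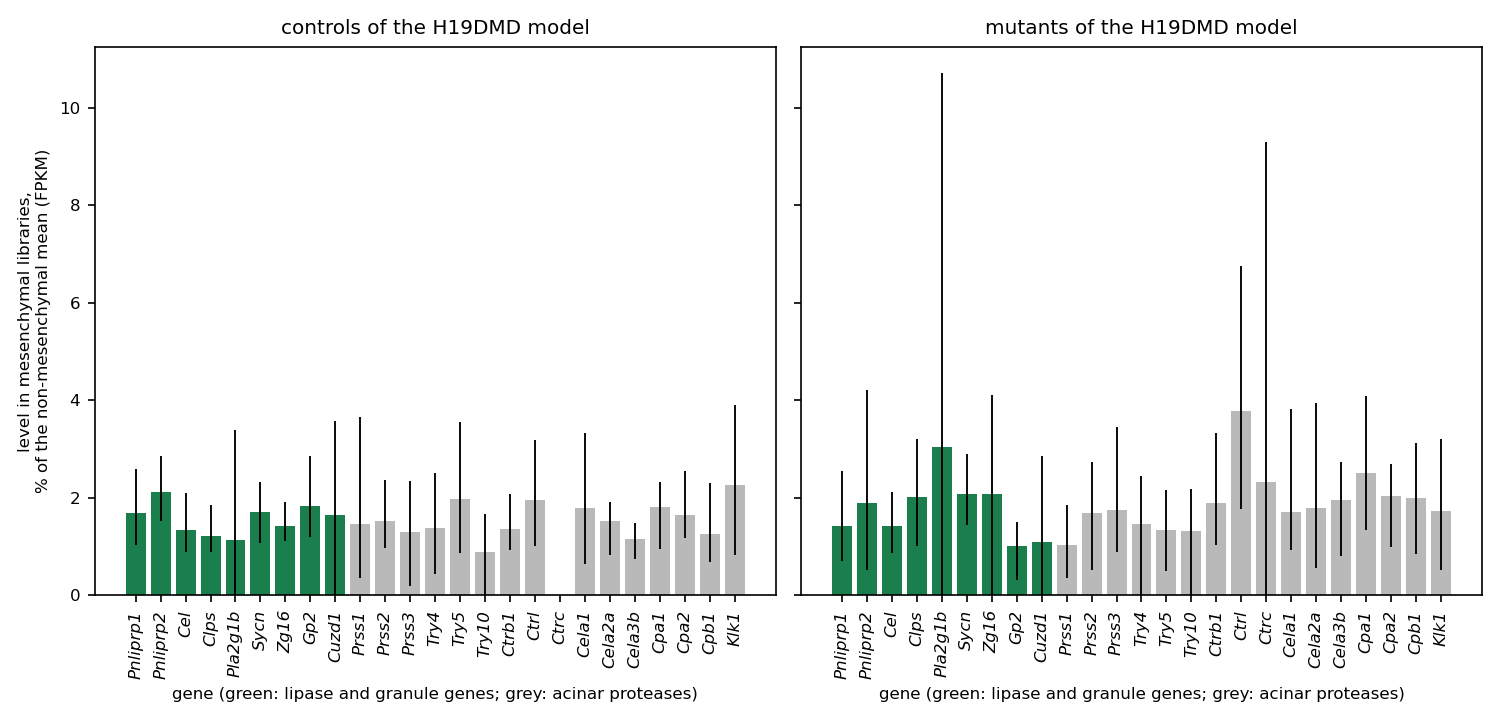
Mean level in mesenchymal libraries as a percentage of the non-mesenchymal mean, for genes with at least 10 FPKM in the non-mesenchymal cells; bars are group means and vertical lines span the mesenchymal libraries. Members (green) run from 1.13 to 2.13% in controls and 1.01 to 3.05% in mutants, and the proteases (grey) from 0 to 2.26% and 1.02 to 3.78%; the tallest line, for Pla2g1b in mutants, is set by 1 library at 10.7%.

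Between H19DMD mutants and controls within the mesenchymal cells, none of the 10 members had groups apart, where 5.39% of 15856 genes did in either direction, and none of the 8 tested passed the limma threshold, which 0.0694% of genes passed. Adjusted p-values were 0.942 to 1.00, and none had an unadjusted p under 0.05, against 4.76% of genes. Log2 fold changes ran from -0.32 (Gp2) to 0.36 (Pla2g1b), and their signs are not stable, since 6 of the 8 reversed under some scaling, pseudocount or block. For Clps the difference was 0.35, and its interval spanned -0.86 to 1.56. The interaction of genotype and fraction, which asks whether the deletion acted differently in both cell fractions, called none of 9 members (0.0117% of 17105 genes called, with an unadjusted p under 0.05 in 6.35% of genes and in none of the members), with the lowest limma adjusted p at Gp2 (0.857).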

How the data were processed

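The authors deposited FPKM values for each model, and TopHat2 2.0.8, Cufflinks 2.2.1 and the build GRCm38 are named per the submitters' processing notes; the annotation is not given in the sources used here. RNA was amplified from 2 ng with a whole-transcriptome kit and read as single 50-base reads, per the labels' protocols. Of 31 samples, 21 had values and 10 were not analysed here. Columns were matched to samples by library name. Genes whose mean FPKM across the compared groups reached 1 were tested with limma 3.58.1 (R 4.3.3) on log2(FPKM + 1), with a variance trend and Benjamini-Hochberg adjustment over all of them at 0.05; fold changes on this scale understate low genes. The fit was tested on simulated data. Exact permutation tests are two-sided. The tables were normalised separately, so no test spans both models. The library names begin differently in each model, so model and any batch that these names stand for cannot be told apart. Members, lists and the naming rule (all members, up to 3 most abundant genes of each other list, 5 genes most alike; Ctrb1, Spp1, Gcg and Ins1 fall under it; Ptf1a was named after its values were seen) were chosen with earlier results of these data known. Gene positions are GENCODE M21, and promoters are RefSeq. The 14 lists beside the members were given no set test. An exact 0 may be a failed estimate. Depth was inferred from the steps between low values and is approximate.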

Additional observations from a re-analysis of the deposited data

Results flagged for a closer look

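In groups of 4 libraries, 1 library stood apart from the rest of its group in 2 of the 30 groups tested, both of them for Pla2g1b, the secreted pancreatic phospholipase A2; chance flags about 1 in 20 groups. Among non-mesenchymal Igf2 controls, library 2 was 92.6 FPKM and the others 27.5 to 35.7 FPKM, a gap of 0.873 of the whole range. Among mesenchymal H19DMD mutants, library 4 was 7.51 FPKM and the others 0 to 1.05 FPKM, a gap of 0.861 of the range.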

How the results depend on the processing

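In the Igf2 model no member reversed under any of the alternatives run (0 of 129 member values), no member was called under any, and adjusted p-values ranged from 0.235 to 0.976. The size of the difference did move: with protein-coding genes alone rescaled, the members' median log2 fold change was 0.86, against 1.13. Both contrasts of fractions also had 0 reversals (117 and 135 values), and all calls of tested members held. Calls over all genes moved. Rescaling protein-coding genes alone gave 0 calls in the Igf2 model, 0 in mesenchymal H19DMD cells, 1 in non-mesenchymal H19DMD cells and 0 for the interaction, against 11, 11, 11 and 2. Dropping genes whose transcripts are all under 200 nt, an alternative chosen after seeing the data, gave 0, 1, 0 and 0. One fit over all groups gave 5 and 1 for the mesenchymal and non-mesenchymal H19DMD comparisons; the Igf2 table holds 2 groups, so there it is the same fit. For the interaction, a pseudocount of 0.1 gave 6 calls and no filter gave 6. Leaving out 1 replicate gave 14 to 37, 13 to 27, 14 to 34 and 2 to 9 calls; the cause was not tested.

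The replicate block gave 2, 7 and 5 calls in the Igf2, mesenchymal and non-mesenchymal H19DMD comparisons. Correlations of the deviations of same-numbered samples were -0.0506 to 0.0674, none over 0.1, and the labels do not say what a number stands for, so the numbers were not taken as pairs. Between the fractions all 7 same-number pairs were above 0 (0.0074 to 0.0674), as were 5 of the 18 other pairs (-0.0514 to 0.0309), and 5 of 7 mesenchymal libraries correlated best with their own number, a hint from the data and not from the design. Under the block, mesenchymal log2 fold changes reversed to 0.0055 (Pnliprp1), 0.0023 (Pnliprp2), 0.061 (Cel), -0.33 (Pla2g1b) and -0.033 (Zg16), and non-mesenchymal Pnliprp2 to -0.014. In mesenchymal cells, Cel reversed to 0.034 under median-ratio scaling, Zg16 to -0.66 with a pseudocount of 0.1 and -0.33 with coding genes rescaled, and Sycn to -0.078 with the latter. The interaction reversed for Cel (-0.086) and Sycn (-0.042) with coding genes rescaled and for Cuzd1 (-0.17) with a pseudocount of 0.1. With 1 replicate left out, mesenchymal values ran from -0.59 to 0.099 (Pnliprp1), -0.62 to 0.0023 (Pnliprp2), -0.27 to 0.32 (Cel), -0.48 to 0.92 (Zg16) and -0.29 to 0.25 (Sycn). Non-mesenchymal H19DMD values ran from -0.15 to 0.40 (Pnliprp1), -0.26 to 0.46 (Pnliprp2), -0.33 to 0.22 (Cel), -0.48 to 0.16 (Clps), -0.41 to 0.53 (Pla2g1b), -0.13 to 0.56 (Zg16) and -0.56 to 0.41 (Sycn). Interaction values ran from -0.26 to 0.42 (Cel), -0.25 to 1.11 (Pla2g1b), -0.73 to 0.68 (Zg16) and -0.41 to 0.56 (Sycn). Pnlip stood at an estimated 0 or 1 read in each of the 7 mesenchymal libraries, so a difference there was not detectable at this depth.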
